A study of Mus musculus with 6 samples.

Results

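The MHC class I antigen presentation genes described here are 10 genes chosen by name: *B2m*, *H2-K1*, *H2-D1*, *Tap1*, *Tap2*, *Tapbp*, *Psmb8*, *Psmb9*, *Nlrc5* and *Irf1*. All 10 were found among the 54532 genes counted, and all 10 passed the filter on low counts that left 14801 genes to test. RNA sequencing was done on 6 libraries of sorted mouse cells, 3 of Gli1+ cells and 3 of Gli1- cells. All mice were *Gli1-CreERT2; tdTomato* on a c57BL/6 background, 1 month old, and were taken 24 h after tamoxifen (TAM). The Cre recombinase is made from the *Gli1* locus and turns on the red reporter tdTomato, so Gli1+ stands for the tdTomato+ cells and Gli1- for the tdTomato- cells of the same mice. Both were sorted as CD45-CD31-Ter119- cells, which sets aside leukocytes, endothelial cells and erythroid cells. The paper names costal cartilage as the tissue and the labels name the growth plate. Whether animals were pooled for a library is not given in the sources used here.

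MHC class I molecules show peptides from inside the cell to CD8+ T cells. The proteasome cuts proteins into peptides, the transporter made of TAP1 and TAP2 carries them into the endoplasmic reticulum, and tapasin, the product of *Tapbp*, helps load them onto a heavy chain (H2-K or H2-D in C57BL/6 mice) bound to beta-2-microglobulin, the product of *B2m*. Interferon gamma raises the whole set, in part through IRF1, and NLRC5 is a transactivator that works at class I promoters through proteins bound to the X and Y boxes.

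The class I promoters carry these boxes as short shared stretches, so the sequence around them is shown for the 3 chain genes and for *H2-M3*, the 1 of 19 further pathway genes with a window that held both cores at the same spacing. RefSeq promoter windows (250 bases before to 50 after each start site, GRCm38.p6) were matched for 8 of the 10 members, and not for *Tap2* and *Nlrc5*. In the stretches below, written 5′ to 3′ along the gene, the capitals mark the core of the X2 box (TGACG), which CREB and ATF proteins bind, and the core of the Y box (ATTGG), which NF-Y binds.
*B2m*: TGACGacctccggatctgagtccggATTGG
*H2-K1*: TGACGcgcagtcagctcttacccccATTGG
*H2-D1*: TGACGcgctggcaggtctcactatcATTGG
*H2-M3*: TGACGcttctccaattcccattctaATTGG
In GRCm38.p6 the *B2m* stretch is at chr2:122147609-122147638 (plus strand), that of *H2-K1* at chr17:34000359-34000388 (minus strand), that of *H2-D1* at chr17:35262993-35263022 (plus strand) and that of *H2-M3*, a non-classical class I chain gene, at chr17:37270188-37270217 (plus strand). The *B2m* stretch lay 78 to 49 bases before the start site, the *H2-K1* stretch 41 to 12 bases and the *H2-D1* stretch 101 to 72 bases. In all 4 the cores stood 20 bases apart, a spacing noticed after the windows had been read. On either strand, 31 of 32851 RefSeq windows (0.0944%) held the pair at this spacing. Alone, the X2 core was in 20.8% of all windows and in 5 of the 8 members, and the Y core was in 37.4% of all windows and in 7 of the 8. For each core, *Tap1* and *Psmb9* are both counted through the same site, since their windows overlap.

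The 200 bases before the start sites of *B2m* and *H2-K1* are shown because they hold further motifs besides these cores. The capitals mark an IRF motif, GAAANNGAAA in *B2m* and its shorter form TTTCNNTTC in *H2-K1*. Capitals also mark a form of the kappaB motif, GGGATTCCC, in *H2-K1*, and then the X2 and Y cores. Other forms of the kappaB motif were not searched for, so any in *B2m* or *H2-K1* is left in lower case.
*B2m*, chr2:122147487-122147686: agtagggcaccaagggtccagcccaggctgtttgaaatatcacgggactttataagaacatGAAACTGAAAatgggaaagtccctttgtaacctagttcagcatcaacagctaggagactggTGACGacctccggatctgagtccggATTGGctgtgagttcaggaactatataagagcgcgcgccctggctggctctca
*H2-K1*, chr17:34000348-34000547: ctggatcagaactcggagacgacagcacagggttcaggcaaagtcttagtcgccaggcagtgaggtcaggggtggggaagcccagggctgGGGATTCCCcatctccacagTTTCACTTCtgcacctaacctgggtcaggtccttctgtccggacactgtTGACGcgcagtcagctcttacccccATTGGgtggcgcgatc
GAAANNGAAA was in 3.44% of all windows and, among the 8 members, in that of *B2m*. TTTCNNTTC was in 7.52% of all windows and in those of *H2-K1* and *H2-D1*, and GGGATTCCC was in 0.353% of all windows and in those of *H2-K1*, *H2-D1* and *Irf1*. Both strands were searched, and neither IRF form contains the other. *Tap1* and *Psmb9* start close together on opposite strands, at 34187556 and 34187330 on chromosome 17, so their windows overlap.

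**Figure D1:**
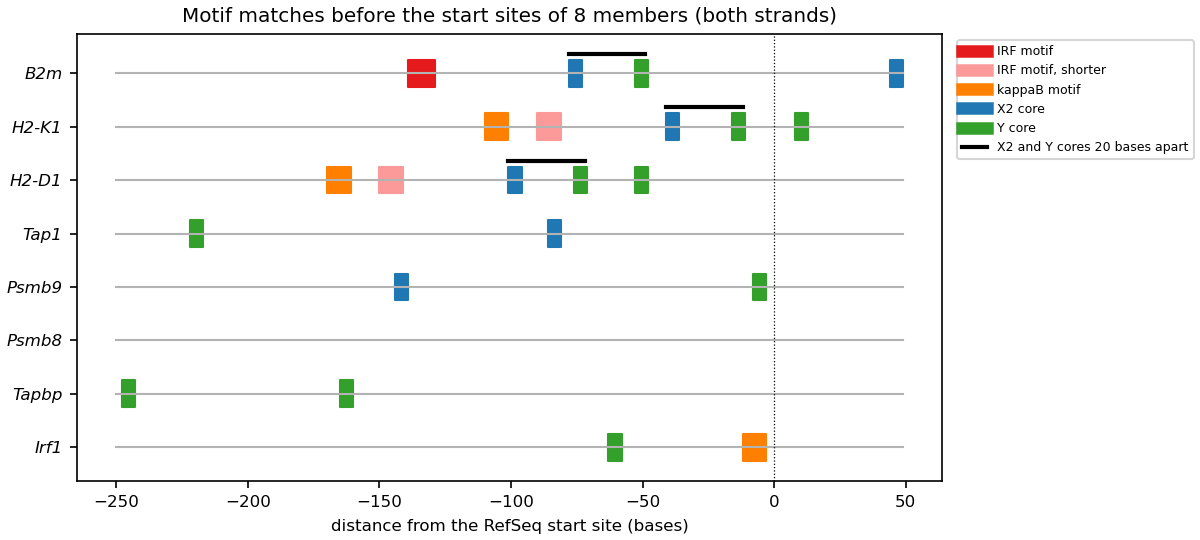
Motif matches in the promoter windows of 8 members, drawn by distance from the RefSeq start site in bases. Boxes are motif matches on either strand, and the black bars over *B2m*, *H2-K1* and *H2-D1* mark X2 and Y cores that stand 20 bases apart.

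Totals per library lay between 17114101 and 18602482 counts. *Gli1* itself had 86, 104 and 152 counts in Gli1+ replicates 1, 2 and 3 and 14, 19 and 46 counts in Gli1- replicates 1, 2 and 3, so the libraries sorted by reporter did not overlap in it. The libraries stood apart in 2 ways that touch the members. Gli1+ replicate 1 held counts for 15000 genes, against 20666 to 23360 in the others. Gli1- replicate 1 held leukocyte transcripts: the summed level of 10 leukocyte markers was 1348 CPM (counts per 1000000, on TMM-scaled libraries) there, 11.5 to 22.6 CPM in the other Gli1- libraries and 19.2 to 50.1 CPM in the Gli1+ libraries. The 9 chondrocyte markers summed to 6153 to 24870 CPM over the 6 libraries. Of these, 3 had a positive and 6 a negative log2FC (Gli1+ over Gli1-). Since leukocytes express class I genes strongly, results are also given without either of these libraries. In such bulk samples, fewer cells of a type and less RNA per cell cannot be told apart.

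No member differed between Gli1+ and Gli1- cells beyond the spread between libraries. The class I chains were among the abundant transcripts of both populations, *Tap1*, *Tap2*, *Psmb8* and *Psmb9* were low, and the libraries of the 2 populations overlapped for all 10 genes. Of the 10 members, 3 had a positive log2FC (Gli1+ over Gli1-) and 7 a negative one, with a median of -0.18, beside 0.0013 over all genes tested. edgeR's quasi-likelihood test called 0 of the 10 at an absolute log2FC over 1 and a Benjamini-Hochberg adjusted p under 0.05, and it called 0 of all 14801 genes (0%). At an unadjusted p under 0.05 it held 0 members and 514 of all genes (3.47%). DESeq2 with a replicate block in the model called 428 genes (2.89%), of which 0 were members, and DESeq2 and limma-voom without a block also called 0 members. DESeq2 gave *Nlrc5* no adjusted p with or without the block, so it could not be called there. Libraries that did not overlap between the populations were seen for 0 members and for 8.49% of all genes. What the members shared was a library: all 10 had their lowest level in Gli1+ replicate 1, as did 35.6% of all genes tested.

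**Figure D2:**
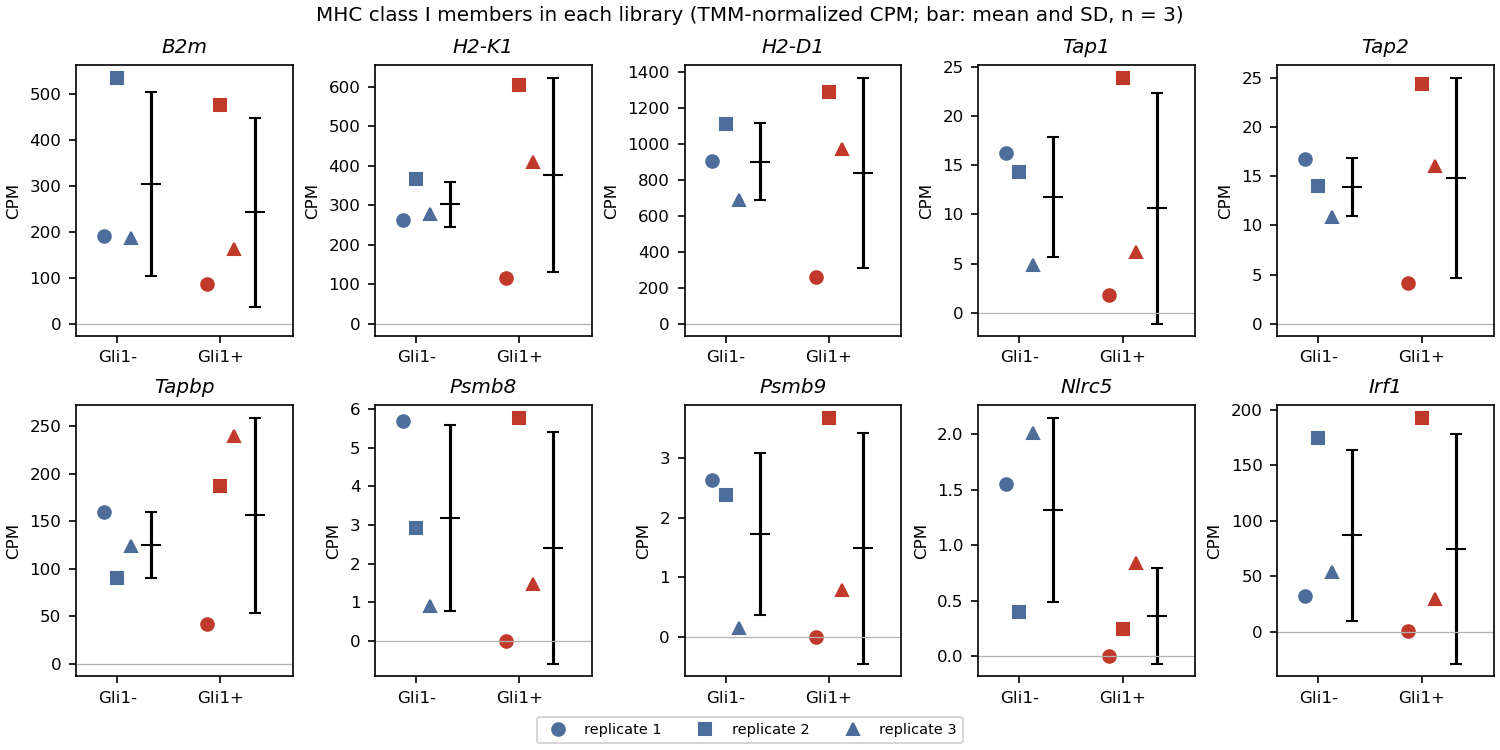
Level of each member in each library, in CPM on TMM-scaled libraries, for Gli1- (blue) and Gli1+ (red) cells; marker shapes give the replicate number and the black bars the mean and SD (n = 3). The circle of Gli1+ replicate 1 is the lowest point in all 10 panels, and the 2 populations overlap in each.

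Scaled to gene length, as TPM (transcripts per 1000000) computed from the counts and the lengths in the table, the members spanned a wide range. These lengths are per gene, so a gene whose transcripts are shorter than its length comes out too low. *H2-D1* had the highest mean over the 6 libraries, 1001 TPM (range 446.2 to 1325), followed by *B2m* at 870 TPM (452 to 1273). These neighbours were not separated, since *H2-D1* was above *B2m* in 3 of 6 libraries. *H2-K1* came next at 384 TPM (198 to 555) and lay below *B2m* in 6 of 6 libraries. *Tapbp* averaged 135 TPM (55.8 to 257) and *Irf1* 50.4 TPM (1.49 to 104), the first being above the second in 5 of 6 libraries. *Tap2* averaged 11.4 TPM (4.90 to 16.2) and *Tap1* 5.71 TPM (1.48 to 10.8), and *Tap2* was above *Tap1* in 6 of 6. The immunoproteasome subunits followed, *Psmb8* at 2.91 TPM (0 to 7.60) and *Psmb9* at 1.17 TPM (0 to 2.64). *Nlrc5* was lowest at 0.345 TPM (0 to 0.898), below *Psmb9* in 4 of 6 libraries, so that these neighbours overlapped.

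Among the class I chains, *B2m* (ENSMUSG00000060802, chr2:122147686-122153083, plus strand) encodes the light chain that all class I molecules need at the cell surface. It was at 86.6, 477 and 164 CPM in Gli1+ replicates 1, 2 and 3 and at 191, 537 and 187 CPM in Gli1- replicates 1, 2 and 3. In both populations replicate 2 stood well above the others, and within each replicate number the Gli1+ library was the lower one. The Gli1+ mean was 242.5 ± 206.9 CPM (SD, n = 3), and the mean of the Gli1- libraries was 305 ± 201 CPM (SD, n = 3). The log2FC of *B2m* was -0.33 (95% confidence interval -1.99 to 1.33, adjusted p = 0.9999, edgeR). Of all genes tested, 19.9% were lower in Gli1+ cells in every pair.

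*H2-K1* (ENSMUSG00000061232, chr17:33996017-34000333, minus strand) encodes the H2-K heavy chain, which holds the peptide. It was at 115, 605 and 410 CPM in Gli1+ replicates 1, 2 and 3 and at 261, 367 and 278 CPM in Gli1- replicates 1, 2 and 3. The Gli1- libraries lay close together, while the Gli1+ libraries reached both below and above all of them. Its log2FC was 0.32 (95% confidence interval -1.07 to 1.71, adjusted p = 0.9999, edgeR). *H2-D1* (ENSMUSG00000073411, chr17:35262730-35267499, plus strand) encodes the other classical heavy chain of this strain. It was at 256, 1289 and 969 CPM in Gli1+ replicates 1, 2 and 3 and at 905, 1109 and 685 CPM in Gli1- replicates 1, 2 and 3. Again the Gli1+ libraries enclosed those of Gli1- cells, and the log2FC was -0.10 (95% confidence interval -1.55 to 1.34, adjusted p = 0.9999, edgeR). Heavy chain genes have near copies: 38 of the 3969 stretches of 100 bases in *H2-K1* transcripts (0.957%) and 93 of the 2591 in *H2-D1* transcripts (3.59%) also occurred in another gene, *H2-Q10* and *H2-Q1* most often. How the counting treated reads that match several genes is not given in the sources used here, so these counts carry that uncertainty.

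Both heavy chain genes were highest in Gli1+ replicate 2 and lowest in Gli1+ replicate 1, while their proportion did not overlap between the populations. Per length, *H2-D1* was at 2.25, 2.16 and 2.39 times the level of *H2-K1* in Gli1+ replicates 1, 2 and 3 and at 3.50, 3.06 and 2.49 times in Gli1- replicates 1, 2 and 3. All 3 Gli1+ ratios lay below all 3 Gli1- ratios, with means of 2.27 ± 0.12 (SD, n = 3) and 3.02 ± 0.51 (SD, n = 3). This ratio was singled out, after its values were seen, from 6 ratios computed between genes of the pathway. Its exact permutation p was 0.1 (2-sided), the smallest that 3 libraries against 3 allow when pairs are ignored. After Benjamini-Hochberg adjustment of these exact tests over the 6 ratios, the adjusted p was 0.6. The exact tests shuffled all 6 libraries and took no account of the pairs. The highest of the 6 ratios was in Gli1- replicate 1, the library with leukocyte transcripts, and their part in the ratio was not tested. For *B2m* over the sum of both heavy chains the ratios were 0.702, 0.758 and 0.357 in Gli1+ replicates 1, 2 and 3 and 0.493, 1.09 and 0.584 in Gli1- replicates 1, 2 and 3, and the populations overlapped.

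For peptide transport, *Tap1* and *Tap2* encode the chains that pair to form the peptide transporter. *Tap1* (ENSMUSG00000037321, chr17:34187553-34197225, plus strand) was at 1.80, 23.9 and 6.20 CPM in Gli1+ replicates 1, 2 and 3 and at 16.2, 14.3 and 4.87 CPM in Gli1- replicates 1, 2 and 3. *Tap2* (ENSMUSG00000024339, chr17:34203527-34216321, plus strand) was at 4.13, 24.4 and 16.1 CPM in Gli1+ replicates 1, 2 and 3 and at 16.8, 14.1 and 10.9 CPM in Gli1- replicates 1, 2 and 3. For both genes Gli1+ replicate 2 was the highest library and Gli1+ replicate 1 the lowest, with the Gli1- libraries between them. The log2FC was -0.15 for *Tap1* (95% confidence interval -2.22 to 1.92) and 0.10 for *Tap2* (95% confidence interval -1.38 to 1.57), with an adjusted p of 0.9999 from edgeR for each. *Tap1* overlaps *Psmb9* by 212 bases on the opposite strand. Whether the counting used the strand is not given in the sources used here, so reads from the overlap may be counted for either gene.

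*Tapbp* (ENSMUSG00000024308, chr17:33915899-33929288, plus strand) encodes tapasin, which bridges the transporter and the empty heavy chain. It was at 41.9, 187 and 240 CPM in Gli1+ replicates 1, 2 and 3 and at 160, 90.2 and 124 CPM in Gli1- replicates 1, 2 and 3. Gli1+ replicates 2 and 3 lay above all Gli1- libraries and Gli1+ replicate 1 below them. Its log2FC was 0.33 (95% confidence interval -1.11 to 1.76, adjusted p = 0.9999, edgeR). The annotated gene shares 3421 bases with *Zbtb22* on the same strand, a gene that had at most 707 counts in a library.

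The immunoproteasome subunits PSMB8 and PSMB9 replace constitutive catalytic subunits when interferon gamma acts on a cell. *Psmb8* (ENSMUSG00000024338, chr17:34197721-34201454, plus strand) was at 0, 5.77 and 1.47 CPM in Gli1+ replicates 1, 2 and 3 and at 5.69, 2.92 and 0.899 CPM in Gli1- replicates 1, 2 and 3. *Psmb9* (ENSMUSG00000096727, chr17:34181988-34187764, minus strand) was at 0, 3.68 and 0.788 CPM in Gli1+ replicates 1, 2 and 3 and at 2.64, 2.39 and 0.159 CPM in Gli1- replicates 1, 2 and 3. Neither gene had a count in Gli1+ replicate 1, which allows a level of up to 0.159 CPM (3 counts, for counting error only), and *Psmb9* was at that limit, with 3 counts, in Gli1- replicate 3. The log2FC was -0.40 for *Psmb8* (95% confidence interval -3.65 to 2.86) and -0.22 for *Psmb9* (95% confidence interval -3.74 to 3.31), with an adjusted p of 0.9999 from edgeR for each. These were the widest intervals among the members and leave room for differences of several fold in either direction.

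Set against the constitutive subunits they replace, both were minor transcripts in every library. The lengths used were 2736 bases for *Psmb8* and 3659 for *Psmb9*, against 899 for *Psmb5* and 1872 for *Psmb6*. Transcripts shorter than these lengths would shift the ratios. Without length scaling, *Psmb8* was at 0 to 5.77 CPM and *Psmb5* at 15.5 to 85.9 CPM. *Psmb9* was at 0 to 3.68 CPM and *Psmb6* at 45.5 to 172 CPM. Per length, *Psmb8* was at 0, 0.0221 and 0.0104 times the level of *Psmb5* in Gli1+ replicates 1, 2 and 3 and at 0.0361, 0.0148 and 0.0094 times in Gli1- replicates 1, 2 and 3. *Psmb9* was at 0, 0.0118 and 0.0048 times the level of *Psmb6* in Gli1+ replicates 1, 2 and 3 and at 0.0157, 0.0071 and 0.0012 times in Gli1- replicates 1, 2 and 3. The highest value of each was in Gli1- replicate 1, which also held the leukocyte transcripts, whose part in it was not tested. *Psmb10*, a further immunoproteasome subunit outside the members, stood higher against the constitutive *Psmb7*. This ratio was 0.0796, 0.671 and 0.380 in Gli1+ replicates 1, 2 and 3. In Gli1- replicates 1, 2 and 3 it was 0.181, 0.223 and 0.312, so the populations overlapped.

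*Nlrc5* (ENSMUSG00000074151, chr8:94434356-94527272, plus strand) encodes the class I transactivator. It was at 0, 0.246 and 0.840 CPM in Gli1+ replicates 1, 2 and 3 and at 1.55, 0.398 and 2.01 CPM in Gli1- replicates 1, 2 and 3. These levels rest on 0, 4 and 16 counts in Gli1+ and 30, 6 and 38 counts in Gli1- replicates 1, 2 and 3. Gli1+ was the lower library of every pair, as it was for *B2m* among the members, but the populations overlapped. The log2FC was -1.85, the largest in size among the members, with a 95% confidence interval of -4.97 to 1.27 (unadjusted p = 0.21, adjusted p = 0.9999, edgeR).

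*Irf1* (ENSMUSG00000018899, chr11:53770014-53778374, plus strand) encodes an early interferon-induced factor that binds IRF motifs. It was at 1.32, 193 and 30.1 CPM in Gli1+ replicates 1, 2 and 3 and at 32.6, 175 and 53.6 CPM in Gli1- replicates 1, 2 and 3. Replicate 2 was highest in both populations, and the highest library stood 145.8 times above the lowest, so this gene varied far more between libraries than between populations. Its log2FC was -0.22 (95% confidence interval -3.23 to 2.79, adjusted p = 0.9999, edgeR). DESeq2 with the replicate number as a block gave *Irf1* a log2FC of -1.57 and an unadjusted p of 0.0305, which did not pass adjustment (adjusted p = 0.308, the lowest for this gene over its alternatives, which reached 1). *Irf1* was lower in Gli1+ cells in pairs 1 and 3 and slightly higher in pair 2.

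Compared within replicate numbers, the members gave opposite pictures. With 0.5 CPM added to each level, all 10 members were lower in the Gli1+ library of pair 1, with a median log2 difference of -1.98, beside -0.16 over all genes. In pair 2, 8 of 10 were higher in the Gli1+ library with a median of 0.63, beside 0.029 over all genes, and in pair 3, 7 of 10 were higher with a median of 0.50, beside 0.016. In pair 1 the smallest difference was that of *B2m*, -1.14, and the largest that of *Irf1*, -4.18. In pairs 2 and 3 *Tapbp* was higher by 1.05 and 0.945, *H2-K1* by 0.72 and 0.56 and *Tap2* by 0.78 and 0.54 on the log2 scale, while *B2m* was at -0.17 and -0.19 and *Nlrc5* at -0.27 and -0.91. *B2m* and *Nlrc5* were thus lower in all 3 pairs, and 0 members were higher in all 3, beside 17.6% of all genes tested.

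**Figure D3:**
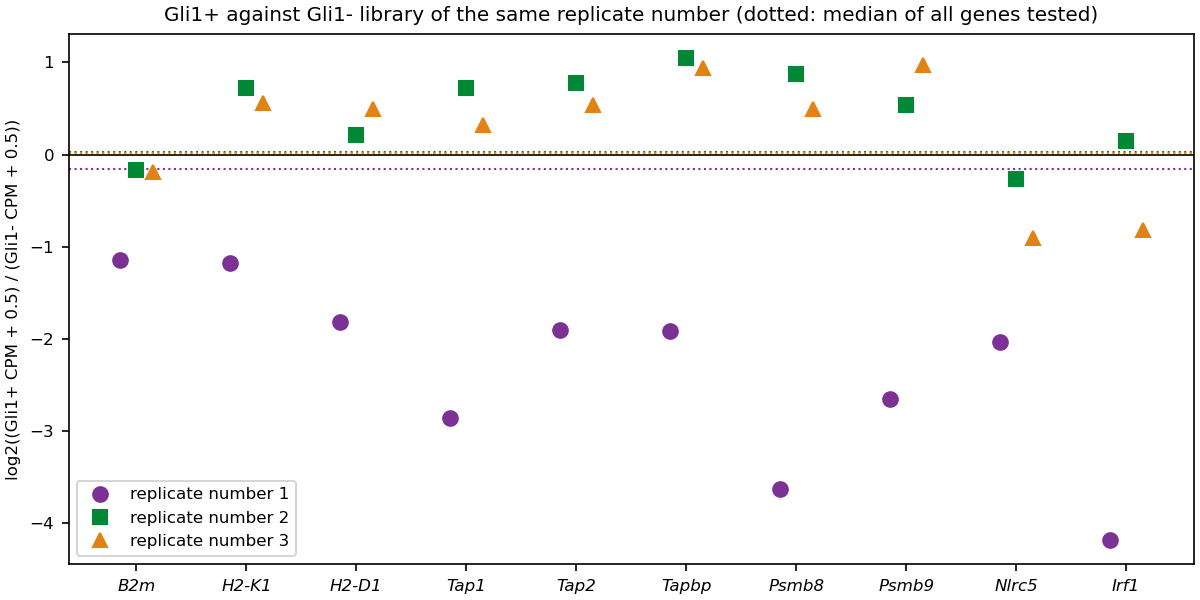
Log2 difference between the Gli1+ and the Gli1- library of each replicate number for the 10 members, with 0.5 CPM added to each level; dotted lines give the median of all genes tested. The purple circles of replicate number 1 lie at -1.14 or below for every member, while those of numbers 2 and 3 lie between -0.91 and 1.05.

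The sign of the members' median changed when single libraries were left out. Without Gli1+ replicate 1, 9 of 10 members had a positive log2FC with a median of 0.33, beside -0.028 over all genes, and *Nlrc5* was the exception. The log2FC was then 0.73 for *H2-K1* (95% confidence interval -0.28 to 1.73), 0.75 for *Tapbp* (95% confidence interval -0.25 to 1.74) and 0.30 for *H2-D1* (95% confidence interval -0.82 to 1.43), with an adjusted p of 0.9999 from edgeR for each. Without Gli1- replicate 1, the library with leukocyte transcripts, the median was 0.19, with *Tapbp* at 0.54 and *B2m* at -0.58. Without Gli1+ replicate 2, in which 7 of the members were at their highest, the median was -1.43. It was 0.062 without Gli1- replicate 2, -0.038 without Gli1+ replicate 3 and -0.49 without Gli1- replicate 3.

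With both libraries of number 1 left out, edgeR's fit with a replicate block gave a positive log2FC for 7 of 10 members and a median of 0.60, beside 0.022 over all genes. This fit rests on 2 pairs and 1 residual degree of freedom. Its standard errors and p-values therefore rest mostly on a spread estimated over all genes, and little on a gene's own 2 pairs. In it *Tapbp* was higher in Gli1+ cells by 1.00 (standard error 0.21, adjusted p = 4.95e-05, edgeR) and *H2-K1* by 0.64 (standard error 0.21, adjusted p = 0.0192, edgeR), and an adjusted p under 0.05 was reached by these 2 of 10 members and by 14.8% of all genes. *Tap2* was at 0.67 with an adjusted p of 0.0519. Over the alternatives the adjusted p of *Tapbp* ranged from 4.95e-05 to 1 and that of *H2-K1* from 0.0192 to 1. No member passed the threshold on both log2FC and adjusted p.

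**Figure D4:**
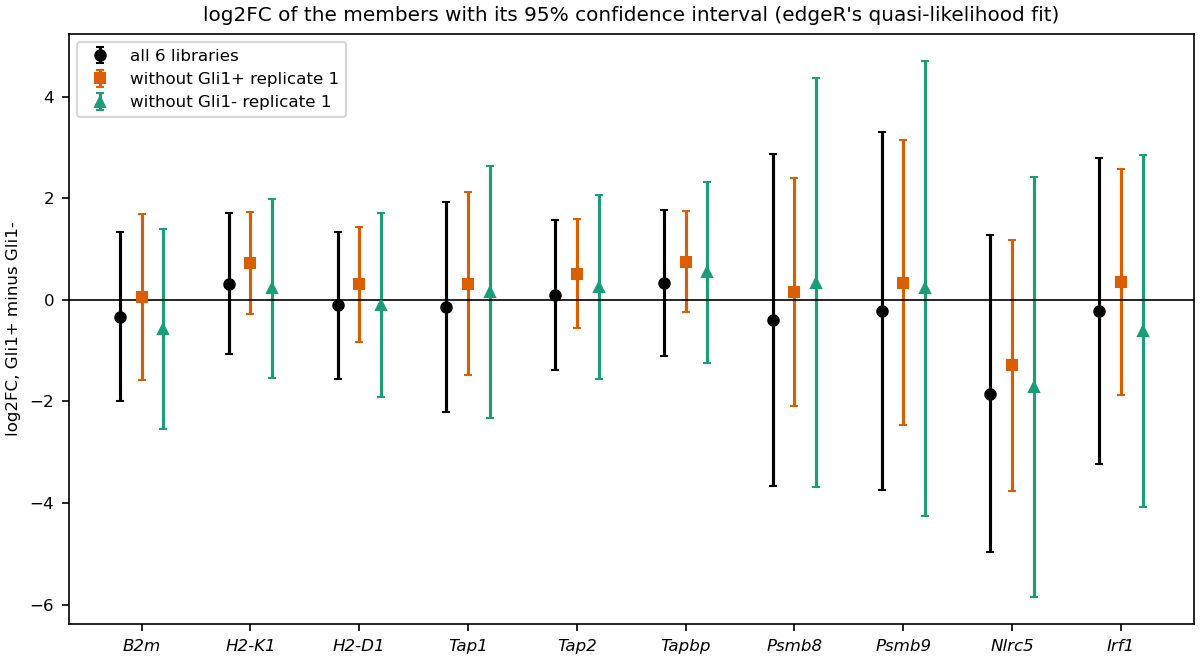
Log2FC (Gli1+ minus Gli1-) of each member with its 95% confidence interval from edgeR, for all 6 libraries and without either library of replicate 1. Every interval crosses 0, and those of *Psmb8*, *Psmb9*, *Nlrc5* and *Irf1* are the widest.

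The other genes of the pathway, 23 genes listed by role, gave no call either. Of these, 22 were tested (*Cd1d1* fell below the filter), 12 had a positive and 10 a negative log2FC, and the median was 0.081. edgeR called 0 of them and held 0 at an unadjusted p under 0.05, and DESeq2 with the block called 0. The abundant ones were chaperones of the endoplasmic reticulum with wider tasks. *Canx* was at 858, 527 and 703 CPM in Gli1+ replicates 1, 2 and 3 and at 580, 462 and 533 CPM in Gli1- replicates 1, 2 and 3. It was thus highest in Gli1+ replicate 1, the library where the members were lowest. *Calr* lay between 654 and 1170 CPM and *Pdia3* between 504 and 889 CPM over the 6 libraries. *H2-Q4*, a non-classical chain gene, was at 30.8, 166 and 112 CPM in Gli1+ replicates 1, 2 and 3 and at 70.0, 132 and 79.7 CPM in Gli1- replicates 1, 2 and 3, again lowest in Gli1+ replicate 1. By role, the 3 genes of the further immunoproteasome subunit and the proteasome activator all had a positive log2FC (median 0.89), and the 3 constitutive catalytic subunits all a negative one (median -0.023). The direction of the constitutive subunits was not stable, since without Gli1+ replicate 1 all 3 were positive (median 0.15). The first 3 genes kept a positive median, 1.27 without Gli1+ replicate 1 and 0.26 with the replicate block in edgeR. With the block, *Psme1* among them was at -0.014. *Psmb6*, a constitutive subunit, lay between 45.5 and 172 CPM.

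The regulators upstream, 17 genes of the interferon receptor signalling, IRF, RFX and NF-kappaB groups, lay mostly below 0: 16 had a negative log2FC and 1 a positive one, with a median of -0.25. edgeR called 0, and 1 had an unadjusted p under 0.05. This was *Irf9*, part of the ISGF3 complex that answers type I interferon, named after its values were seen. It was at 9.42, 10.3 and 11.2 CPM in Gli1+ replicates 1, 2 and 3 and at 28.8, 20.2 and 16.2 CPM in Gli1- replicates 1, 2 and 3, so it was highest in the library with leukocyte transcripts, whose part in it was not tested. Its log2FC was -1.08 (unadjusted p = 0.0363, adjusted p = 0.9999, edgeR). *Irf9* and *Stat2*, its partner in ISGF3, were the 2 of 17 regulators whose populations did not overlap, with all Gli1+ libraries below all Gli1- libraries, beside 8.49% of all genes tested. Without Gli1+ replicate 1 the median of the 17 was -0.33, and without both libraries of number 1 it was -0.20. The most abundant regulators were *Nfkb1* at 162 to 460 CPM, *Rela* at 120 to 414 CPM, *Jak1* at 153 to 265 CPM, *Jak2* at 73.2 to 131 CPM and *Ifnar1* at 40.9 to 113 CPM.

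Summed over the 10 members, the level was 507, 2810 and 1838 CPM in Gli1+ replicates 1, 2 and 3 and 1593, 2312 and 1347 CPM in Gli1- replicates 1, 2 and 3. Gli1- replicate 1 held 1348 CPM of leukocyte, 3193 CPM of neutrophil and 953 CPM of macrophage markers, and its sum of members, carried by the class I chains, lay between those of the other libraries. *Tap1*, *Tap2*, *Tapbp*, *Psmb8* and *Psmb9* were higher there than in the other Gli1- libraries, and the part of leukocyte transcripts in this was not tested. The neutrophil markers were at 14.6 and 40.6 CPM in the other Gli1- libraries and at 9.45 to 76.9 CPM in the Gli1+ libraries. Lymphocyte markers summed to 0.464 to 7.68 CPM in all libraries, and of the 7 on the list 6 were at 0 in Gli1+ replicate 1. *Ptprc*, which encodes CD45, was at 54.7 CPM in Gli1- replicate 1 and at 0.0525 to 1.11 CPM in the other libraries. Endothelial markers summed to 2.40 to 3.15 CPM in Gli1+ and 4.02 to 14.0 CPM in Gli1- libraries, and erythroid markers to 0 to 4.67 CPM and 0.582 to 19.1 CPM. Fibroblast markers summed to 1821 to 4005 CPM in Gli1+ and 2189 to 9173 CPM in Gli1- libraries, and all 6 had a negative log2FC (median -1.07). edgeR called 0 of the 6, 1 of which had an unadjusted p under 0.05, beside 3.47% of all genes tested. DESeq2 with the block called 2, *Col3a1* and *Pdgfra*, beside 2.89% of all genes tested. In the other marker lists the same fit called *Ptprc* lower in Gli1+ cells (log2FC -3.38, adjusted p = 0.0486). Of the chondrocyte markers it called *Comp* (log2FC -1.41, adjusted p = 0.00037) and *Matn1* (log2FC -3.35, adjusted p = 0.0279) lower. *Pdgfra*, which encodes a PDGF receptor, did not overlap between the populations (log2FC -1.97, adjusted p = 0.9999, edgeR), beside 8.49% of all genes tested. The part of fibroblast transcripts in the members' levels was not tested.

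**Figure D5:**
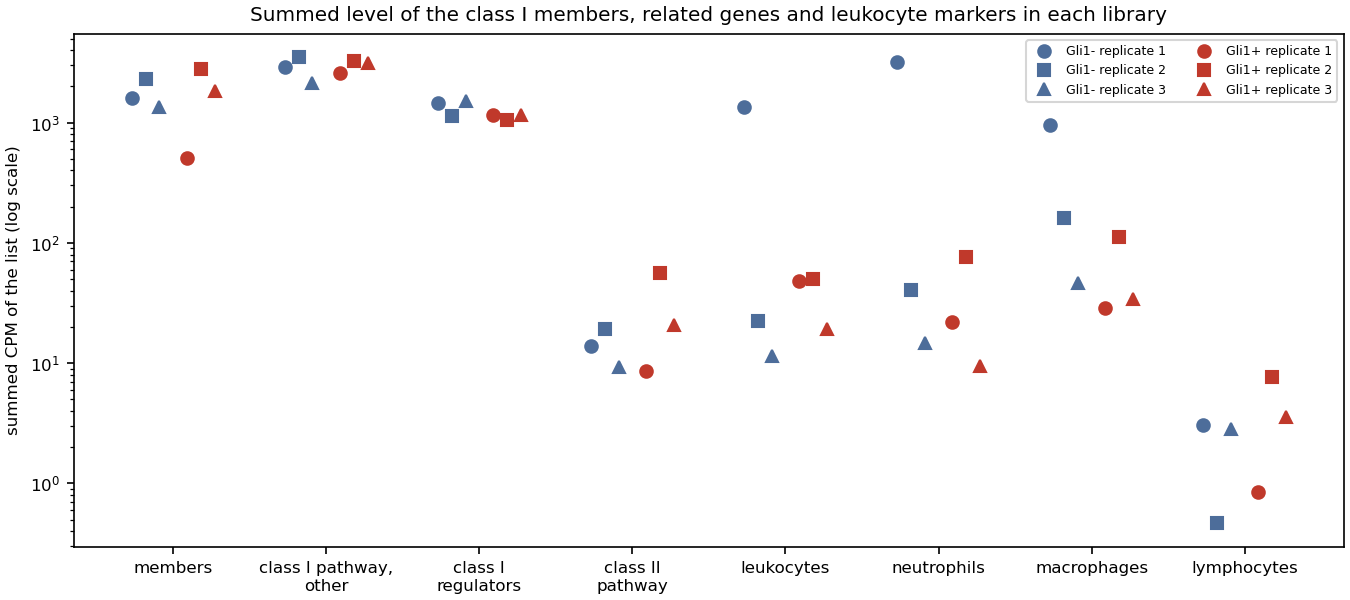
Summed CPM (log scale) of the 10 members, of related gene lists and of leukocyte marker lists in each library, with Gli1- in blue and Gli1+ in red. Gli1- replicate 1 stands apart in the leukocyte, neutrophil and macrophage markers, and Gli1+ replicate 1 is the lowest library for the members.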

How the data were processed

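RNA from 3 Gli1+ and 3 Gli1- libraries was compared. The authors deposited 1 table of counts, whole numbers of reads per gene and library with gene lengths and coordinates, not normalized. The submitters' processing notes name HISAT2 2.0.5, featureCounts 1.5.0-p3 and the mm10 build, and the paper gives Novogene as the analyst. Of 54532 genes, 54409 were found in GENCODE M21, and 53462 had the same coordinates, among them 7 of the 10 members. The stretches that members share with other genes were counted in GENCODE M21 transcripts, which may differ from the annotation used for the counts.

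Genes were filtered with filterByExpr (minimum count 10), which left 14801, scaled by TMM and tested with edgeR 4.0.16's quasi-likelihood test in R 4.3.3, with Benjamini-Hochberg adjustment over all genes tested. Genes were called at an absolute log2FC over 1 and an adjusted p under 0.05. The scripts were tested on simulated data. DESeq2 1.42.0, limma 3.58.1 (voom), other scalings and filters, each library left out and each pair left out were the alternatives. Per the paper the 3 libraries of a population are biological replicates, without saying how many animals went into each, and p-values measure the spread between these libraries.

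Per the paper, the populations were sorted from the same mice. After subtracting each population's mean, libraries with the same number correlated at 0.223, 0.720 and 0.471 for numbers 1, 2 and 3. These values rest on 14801 genes, which are not independent. Libraries with different numbers were not compared in this way, so the values do not establish that the numbers mark pairs. Treating libraries with the same number as pairs was an assumption. The pairs entered the pair differences and the fits with a block. The fit without a block was kept as the main one, since no paired fit is stated. Its intervals ignore the pairs. With the block in edgeR, the standard error went from 0.72 to 0.31 for *B2m* but from 0.62 to 0.69 for *Tapbp*. The members' adjusted p then lay between 0.708 (*B2m*) and 0.979 (*H2-K1*), and the smallest of all genes was 0.307.

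The members and all gene lists were chosen with earlier results of these data known. The text names all members, and of the other lists those past a threshold and up to 5 with the highest mean CPM. Genes outside this rule are *Cd1d1*, *Irf9*, *Stat2*, *H2-M3*, *Psmb5*, *Psmb7*, *Psmb10*, *Psme1* and the marker genes, and genes that share sequence with members, named after their values were seen. Sequences came from RefSeq (GRCm38.p6). Figures were drawn with matplotlib 3.10.9 and Python 3.11.15.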

Additional observations from a re-analysis of the deposited data

How the results depend on the processing

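The count of members called was 0 under all 21 alternatives, while the count of all genes called, 0 in edgeR's fit of the 6 libraries, was 30 with DESeq2 (15 higher in Gli1+ cells and 15 lower), 428 with DESeq2 and the replicate block (115 higher, 313 lower), 267 without a filter on low counts (20 higher, 247 lower) and 498 at an absolute log2FC over 1 and an unadjusted p under 0.05 (205 higher, 293 lower). With libraries or pairs left out it ranged from 0 to 1201, the highest being without both libraries of number 1. The members' median log2FC ranged from -1.43 without Gli1+ replicate 2 to 0.60 without both libraries of number 1, against a spread of 1.47 (SD) between the 3 pairs. With the replicate block, edgeR gave a median of -0.42 and called 0 genes, and the paired fit turned the log2FC of *Tap2* to -0.16. *Tap2* was also at -0.17 in DESeq2 with the block, -0.11 in limma-voom with the block and -0.23 in limma-voom without it. *Psmb8* was at 0.0037 and *Psmb9* at 0.039 in limma-voom with the block. The cause was not tested. With libraries or pairs left out, the log2FC ranged from -1.30 to 0.34 for *B2m*, -0.34 to 0.73 for *H2-K1*, -0.79 to 0.35 for *H2-D1*, -1.56 to 0.55 for *Tap1*, -0.75 to 0.67 for *Tap2*, -0.52 to 1.00 for *Tapbp*, -2.84 to 0.86 for *Psmb8*, -2.31 to 1.13 for *Psmb9* and -2.68 to 0.78 for *Irf1*. *Nlrc5* stayed negative, from -3.39 to -1.07, wherever it passed the filter. Counts of 0 to 38 per library limit what can be said of *Nlrc5*, to which DESeq2 gave no adjusted p.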

Other observations

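The genes of MHC class II presentation, by which professional antigen-presenting cells show peptides to CD4+ T cells, were low in both populations. Of 10 genes listed, 8 were tested, and all 8 had a positive log2FC (Gli1+ over Gli1-) with a median of 1.20. edgeR called 0 and held 0 at an unadjusted p under 0.05, and DESeq2 with the replicate block called 0. Their sum was 8.68, 56.0 and 20.7 CPM in Gli1+ replicates 1, 2 and 3 and 13.9, 19.3 and 9.20 CPM in Gli1- replicates 1, 2 and 3, so the populations overlapped. *H2-Ab1*, a class II beta chain, was at 1.64, 15.6 and 4.62 CPM in Gli1+ replicates 1, 2 and 3 and at 1.14, 4.71 and 1.38 CPM in Gli1- replicates 1, 2 and 3. It was the higher library in Gli1+ cells in each pair, with a log2FC of 1.60 (adjusted p = 0.9999, edgeR's quasi-likelihood test). *Cd74*, the invariant chain that guards the class II groove, was at 0.635, 12.8 and 5.46 CPM in Gli1+ and at 7.14, 2.65 and 3.02 CPM in Gli1- replicates 1, 2 and 3. Without Gli1+ replicate 1 the median of the 8 was 1.61, with 7 of 8 positive. Lymphocyte markers, whose sum was highest in Gli1+ replicate 2 at 7.68 CPM, were highest in the same library as the class II sum, and their part in it was not tested.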
